A study of Homo sapiens with 12 samples.

Results

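Integrins are paired α and β chains by which a cell holds on to other cells and to matrix, and in myeloid cells the β2 family carries much of this work. The ITGB2 product (CD18) pairs with ITGAL (CD11a), ITGAM (CD11b), ITGAX (CD11c) or ITGAD (CD11d) to bind ICAM molecules, complement fragments and fibrinogen, while the β1 chain ITGB1 pairs with ITGA4 or ITGA5 to bind VCAM1 and fibronectin. Inside the cell, talin and kindlin bind the β tails under control of RAP1 GTPases, and SRC family kinases, SYK and small GTPases act downstream. The group described here held 10 integrin genes, ITGAX, ITGAM, ITGAL, ITGB2, ITGA4, ITGA5, ITGB1, ITGB7, ITGAV and ITGB4, of 27827 gene symbols counted in either of the 2 deposited tables. Members were picked by symbol, with the knowledge that ITGAX was higher with both antibodies and that ITGB4 was lower with the agonist. Calls in these comparisons are therefore given as a description of the family and not as independent evidence.

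RNA sequencing was done on U937, an established human pro-monocytic leukaemia line, in 4 groups of 3 libraries. In set 1 the cells received a LILRB3 antagonist antibody or nonspecific IgG, and in set 2 a LILRB3 agonist antibody or a separate nonspecific IgG group. Per the labels, all 4 groups had been pretreated with 50 ng/mL interferon gamma, and antibody treatment lasted 72 hours; the column names mention interferon in set 1 only. LILRB3 itself is a receptor that restrains myeloid cells. The labels give the antibody dose as 5 mg/mL, a unit left as written. Whether each library had its own culture is not stated in them, so errors and p-values measure the spread between these libraries, which may be technical.

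Counts of named genes summed to between 17035334 and 17771980 in antagonist libraries and between 17142362 and 18820312 in their IgG libraries. The set 2 table listed only 904 genes. Listed counts summed to between 3135972 and 3522203 in agonist libraries and between 2764479 and 3321678 in their IgG libraries, and these sums are not library depths. In set 2 no listed gene lay within 0.1 of a log2 fold change of zero, against 23.1% of tested genes in set 1, so the list was treated as a selection made on these libraries. Replicates were compared by chi-square over genes, divided by the degrees of freedom. IgG library 1 of set 1 stood apart from its group (10.4 and 18.5, where its fellow libraries gave 4.32 between them), and so did agonist library 1 (24.9 and 26.6, where its fellow libraries gave 3.74).

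The cells carried the granule and lineage genes of a myeloid progenitor line. All 15 genes of the myeloid list were counted in set 1, with a summed level of 7494 to 7962 CPM (counts relative to the library's total of named genes) in antagonist libraries and 7639 to 8763 CPM in IgG libraries. The granule protease ELANE had 35590 and 36119 summed counts, whereas the myeloperoxidase gene MPO had only 43 and 25. Markers of other cells were low or absent: no library of set 1 held a count of EPCAM or KRT5 (epithelial), PF4 or PPBP (platelet), HBB (erythroid) or MS4A1 (B cell), which were each at 0. The platelet list summed to 9.33 to 10.9 CPM with the antagonist and 4.68 to 6.75 CPM with IgG, nearly all from GP1BA (0.76 ± 0.15), and its part in the integrin values was not tested. In bulk RNA, fewer expressing cells and less RNA per cell cannot be told apart.

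All 10 members were in the set 1 table and all 10 passed the filter on low counts. Only ITGAX, ITGB2 and ITGB4 were among the genes listed for set 2, so that the other 7 could not be judged with the agonist. ITGAX lies on chromosome 16 (31355134 to 31382997, plus strand, GRCh38, GENCODE 29), beside ITGAM (31259967 to 31332892) and in the same chromosome arm as ITGAL (30472658 to 30523185). These genes arose as copies of one another, which bears on how reads can be told apart. The longest run of bases that the longest coding transcripts of ITGAX and ITGAM have in common was 70 bases long, lies in coding exon 13 of both, and differed at 4 positions in the neighbouring copy ITGAD. It is shown because reads within it could come from either ITGAX or ITGAM, with the ITGAD differences in capitals (ITGAX at chr16:31362984-31363053, ITGAM at chr16:31297563-31297632, ITGAD at chr16:31411125-31411194, plus strand).
ITGAX: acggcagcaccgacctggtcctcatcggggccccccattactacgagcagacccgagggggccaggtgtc
ITGAM: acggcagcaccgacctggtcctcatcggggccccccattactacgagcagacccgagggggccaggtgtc
ITGAD: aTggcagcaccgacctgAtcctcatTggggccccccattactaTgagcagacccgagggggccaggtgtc
Of the 50-base windows of ITGAX transcripts, 0.285% also occurred in ITGAM and 0.908% in ITGAD. The longest run that ITGAX had in common with ITGAD was 83 bases, across an exon junction elsewhere in the gene. The largest such share among the members was in ITGB1, where 8.86% of windows also occurred in the gene AC022149.1. Its part in the ITGB1 counts was not tested.

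ITGAX, the αX chain of complement receptor 4 and a marker of dendritic cells and macrophages, was higher with both antibodies. In set 1 it had 75.4, 65.5 and 76.7 CPM (here and below scaled by TMM, trimmed mean of M-values) in antagonist libraries, against 48.2, 57.3 and 57.1 CPM in IgG libraries. The lowest antagonist library lay above the highest IgG library. The log2 fold change was 0.42 ± 0.08 (SE, n = 3 per group), a ratio of 1.34, and stayed between 0.37 and 0.49 when any 1 library was left out. It was 0.25 once trends with transcript length and GC content were removed. In set 2 it had 1242, 1360 and 1400 CPM of listed counts in agonist libraries and 929, 949 and 872 CPM in IgG libraries. These groups did not overlap either, and the log2 fold change was 0.54 ± 0.06, a ratio of 1.46. CPM values of the sets have different denominators and cannot be set side by side, and whether the antibodies differed in effect was not tested.

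A measure that needs no library scaling is the ITGAX count as a percentage of the ITGB2 count in the same library, which sets an α chain against its own β chain. It was 7.47%, 7.01% and 7.68% with the antagonist, against 5.47%, 5.45% and 5.36% in the IgG group of set 1. With the agonist it was 6.38%, 7.09% and 7.34%, against 5.28%, 5.26% and 4.93% in the IgG group of set 2. Both antibody groups lay above their own IgG group, and agonist library 1, which stood apart from its group over all listed genes, had the lowest of the agonist values. The means of the IgG groups were 5.16% in set 2 and 5.43% in set 1, a ratio of 0.95. These percentages come from the same counts that chose ITGAX and are descriptive.

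**Figure D1:**
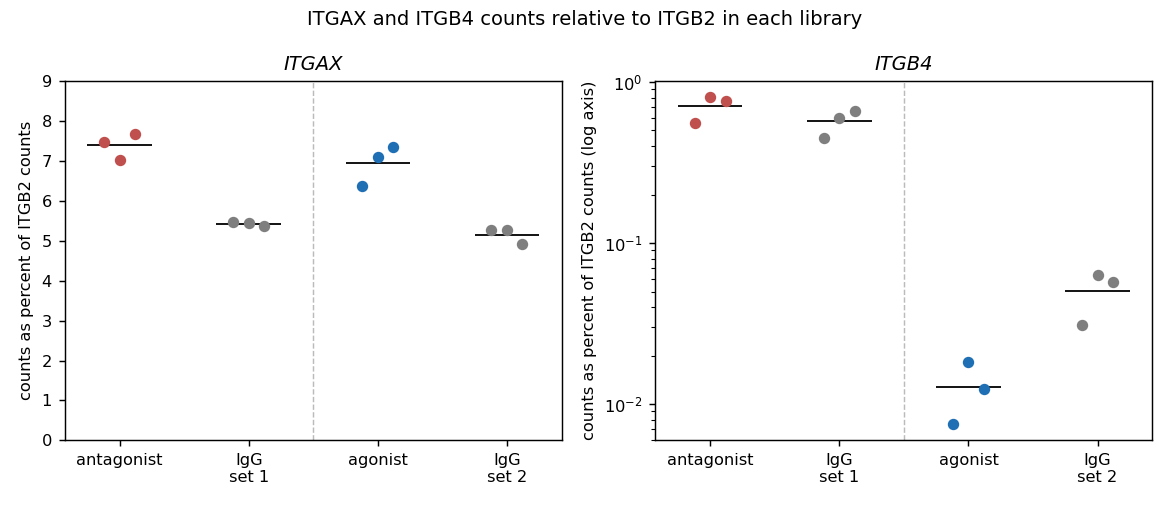
Counts of ITGAX (left, linear axis) and ITGB4 (right, log axis) as a percentage of the ITGB2 count of the same library, for the 12 libraries by group; points are libraries and lines are group means. ITGAX lies above its own IgG group with each antibody, between 6.38% and 7.68% against 4.93% to 5.47%, while ITGB4 is lower in every agonist library than in any IgG library of set 2.

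The other α partners of ITGB2 had smaller log2 fold changes than ITGAX in set 1, a difference between genes that was not tested. ITGAM, the αM chain of complement receptor 3, had 16.5, 16.3 and 15.3 CPM in antagonist libraries and 15.3, 15 and 17.2 CPM in IgG libraries. These groups overlapped, and the log2 fold change was 0.02 ± 0.09. ITGAL, the αL chain of LFA-1, had 75.6, 67.7 and 71.7 CPM with the antagonist, against 57.8, 64.7 and 67.3 CPM with IgG. Its groups did not overlap, by a narrow margin, and its log2 fold change of 0.18 ± 0.07 was not called with TMM scaling but was called with DESeq2 size factors (0.20) and with library totals (0.26). After removal of length and GC trends it was 0.04. ITGB2, the β2 chain shared by all of them, had 1009, 934 and 999 CPM with the antagonist and 881, 1051 and 1066 CPM with IgG. IgG library 1 was the lowest of the 6 libraries, and the log2 fold change was -0.03 ± 0.07 with overlapping groups, 0.06 with library totals and -0.23, past the threshold, after removal of length and GC trends. Read against ITGB2 itself, ITGAL took 7.17% to 7.49% with the antagonist and 6.15% to 6.56% with IgG, whereas ITGAM took 1.53% to 1.74% and 1.43% to 1.73%.

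Per kilobase of merged exon, the 4 α chain genes that pair with ITGB2 (ITGAL, ITGAM, ITGAX and the non-member ITGAD) summed to 17.3% ± 0.187 of the ITGB2 level with the antagonist and to 14.3% ± 0.317 with IgG (SD, n = 3 each). Within that pool ITGAX made up 41.0% ± 1.8 with the antagonist and 36.4% ± 0.804 with IgG. ITGAL made up 44.3% ± 0.584 and 46.5% ± 0.481, ITGAM 11.3% ± 0.76 and 13.3% ± 1.01, and ITGAD 3.48% ± 0.801 and 3.73% ± 0.73. The shares of ITGAX, ITGAL and ITGAM did not overlap between antagonist and IgG libraries, ITGAX being the larger and ITGAL and ITGAM the smaller with the antagonist, while those of ITGAD overlapped. Shares of a pool sum to a fixed total, so a larger share of ITGAX makes the others smaller, and the mean CPM of ITGAL and ITGAM was not lower with the antagonist. These shares come from the same counts that chose ITGAX and are descriptive.

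**Figure D2:**
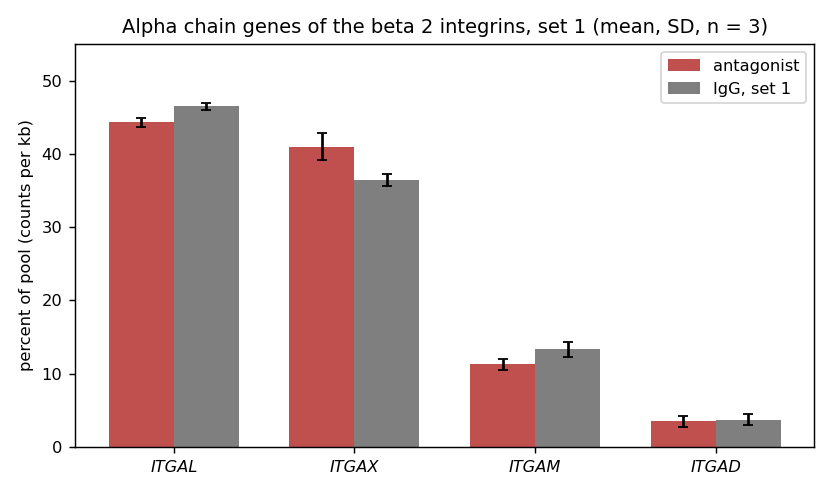
Share of each α chain gene in the summed counts per kilobase of the 4 genes whose products pair with ITGB2, in antagonist libraries (left bar of each pair) and IgG libraries of set 1 (right bar); bars are means and whiskers SD, n = 3. ITGAX holds 41.0% with the antagonist and 36.4% with IgG, and ITGAL 44.3% and 46.5%.

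With the agonist, ITGB2 had 19470, 19179 and 19084 CPM of listed counts, against 17582, 18043 and 17674 CPM in the IgG libraries of set 2. The groups did not overlap, but the log2 fold change of 0.12 ± 0.04 was the smallest rise among the genes listed for set 2. It became 0.02 with DESeq2 size factors and 0.04 with length and GC trends removed, and no longer passed the threshold in either. It also missed the threshold without IgG library 1 or IgG library 3 (0.11 each). ITGB2 overlaps the antisense gene ITGB2-AS1 over 4.46% of its exon bases, and without knowledge of strand the reads of that stretch cannot be assigned.

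Among the members, the β1 chain ITGB1 and its partners ITGA5 and ITGA4 lay lower or level with the antagonist. ITGB1, the β1 chain, had 136, 145 and 131 CPM in antagonist libraries and 172, 162 and 159 CPM in IgG libraries. Every antagonist library was below every IgG library, and ITGB1 was called lower at -0.26 ± 0.06. The call was lost with library totals in place of TMM (-0.18), the value was -0.17 with length and GC trends removed, and as a percentage of ITGB2 the groups overlapped, at 13.1% to 15.6% with the antagonist and 15% to 19.5% with IgG. ITGA5, the fibronectin receptor chain, had 413, 398 and 412 CPM with the antagonist, against 422, 470 and 471 CPM with IgG. The groups were separated, with IgG library 1 close to the antagonist libraries, and the log2 fold change of -0.16 ± 0.06 was not called. It was called without that library (-0.18), with no filter (-0.16) and with length and GC trends removed (-0.32). ITGA4, which with ITGB1 forms the VCAM1 receptor VLA-4, had 253, 251 and 248 CPM with the antagonist and 266, 267 and 260 CPM with IgG. The groups were separated by a small step (-0.08 ± 0.05, not called), which with library totals was 0.0032 and with length and GC trends removed was -0.10 and called.

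ITGB7, the β7 chain that pairs with ITGA4 to bind the gut addressin MADCAM1 or with ITGAE to bind E-cadherin, was the least counted member. It had 16, 18 and 30 counts in antagonist libraries, against 7, 15 and 5 counts in IgG libraries. The lowest antagonist and the highest IgG library differed by a single count. Scaled by library totals, the ratio of summed counts was 2.41 (95% exact interval 1.52 to 3.93, covering counting error only). ITGB7 passed the low-count filter through the antagonist libraries, the group where it was high, so its call is descriptive only. The DESeq2 Wald test gave it no adjusted p. ITGB7 was called higher at 1.18 ± 0.43, close to the threshold, and the call was lost in 5 of the 6 fits that left out 1 library. Its log2 fold change ranged from 0.86 without antagonist library 3 to 1.79 without IgG library 2, the IgG library with the most counts. On the opposite strand the gene ZNF740 overlaps 42.1% of ITGB7 exon bases. ZNF740 had 36.1 ± 1.29 CPM with the antagonist and 34.7 ± 2.63 CPM with IgG (SD, n = 3), far above ITGB7, and the use of strand in counting is not given in the sources used here.

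ITGAV, the αV chain of vitronectin and TGF-β binding integrins, had 13.5, 17.2 and 13.8 CPM with the antagonist and 11.7, 12.6 and 13.8 CPM with IgG. The groups overlapped and the log2 fold change was 0.22 ± 0.12. ITGB4, best known as the β4 chain of epithelial hemidesmosomes, had 5.6, 7.5 and 7.6 CPM with the antagonist and 3.98, 6.29 and 7.04 CPM with IgG. These groups overlapped as well (0.27 ± 0.20), and no call was made for either gene. The ITGAV value was 0.10 without antagonist library 2. That of ITGB4 was 0.08 without IgG library 1, 0.45 without IgG library 3 and 0.04 with length and GC trends removed.

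In set 2 ITGB4 was lower with the agonist, on few counts. The agonist libraries held 5, 11 and 8 counts and the IgG libraries 18, 32 and 32. No agonist library reached the lowest IgG library. The ratio of summed counts, 24 over 82, was 0.27 after scaling by listed totals (95% exact interval 0.164 to 0.429, counting error only), and the fitted log2 fold change was -1.86 ± 0.46. It lay between -2.19 and -1.60 when any 1 library was left out. Set against ITGB2 in the same library, ITGB4 was at 0.00751% to 0.0182% with the agonist and 0.0309% to 0.0635% with IgG. The epithelial markers EPCAM, CDH1, KRT5, KRT14, KRT18 and KRT19 were not among the genes listed for set 2, so no value bears on them there. In set 1 those 6 genes summed to 0.113 to 0.285 CPM with the antagonist and 0.159 to 0.233 CPM with IgG.

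**Figure D3:**
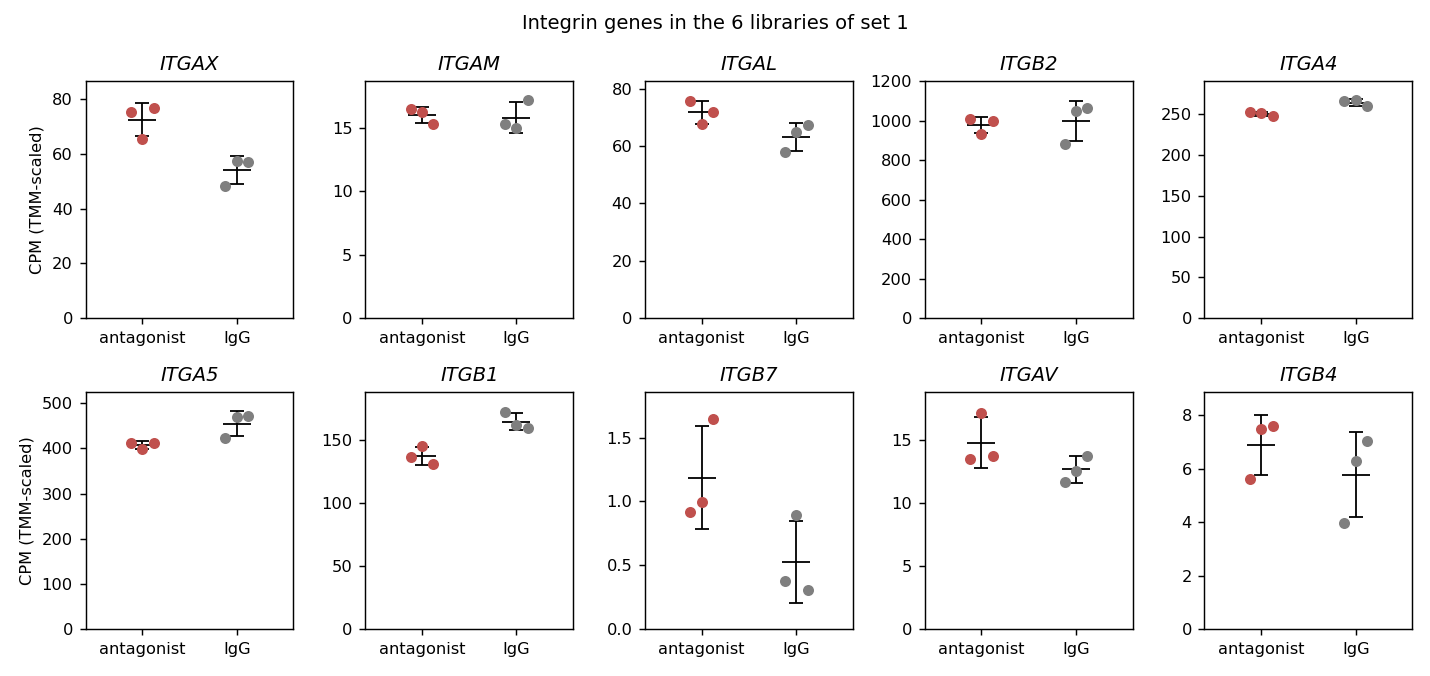
TMM-scaled CPM of the 10 integrin genes in each antagonist library (left) and IgG library (right) of set 1; points are libraries, and the black marks are mean and SD, n = 3. ITGAX stands between 65.5 and 76.7 CPM with the antagonist against 48.2 to 57.3 CPM with IgG, and ITGB1 lies lower with the antagonist.

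Over the family, 3 of 10 members passed an adjusted p of 0.05 in the antagonist comparison (edgeR quasi-likelihood test, Benjamini-Hochberg over 13778 genes). ITGAX and ITGB7 were higher and ITGB1 lower, the ITGB7 call with the limits given above. Over all tested genes the share called was 36.1%, with 15.6% higher and 20.5% lower, so the members were called about as often as genes in general. Groups did not overlap for 6 members, against 49.0% of all genes. The median log2 fold change of the members was 0.10 and that of all tested genes -0.01. After removal of length and GC trends 6 members were called, 2 higher and 4 lower. In that fit 2074 of all 13778 tested genes were higher and 3448 lower, the background for the list counts after trend removal below. Across 13072 genes, which are not independent, the Spearman correlation of the antagonist log2 fold change was 0.205 with exon length and 0.284 with GC content. ITGAX has 7.07 kb of exons at 56.3% GC, against medians of 4.82 kb and 49.4%. The share of higher calls among all calls was 43.1%, and 65.4% with library totals. In the agonist comparison all 3 listed members passed, as did 99.9% of the listed genes, 55.6% higher and 44.2% lower, and all 3 had separated groups, as did 97.6%. Nothing can be read from that count, since the list was selected on these libraries, and with DESeq2 size factors the median of all listed genes went to 0.09 where TMM gave 0.19, and higher calls to 44.2% of calls where TMM gave 55.7%.

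**Figure D4:**
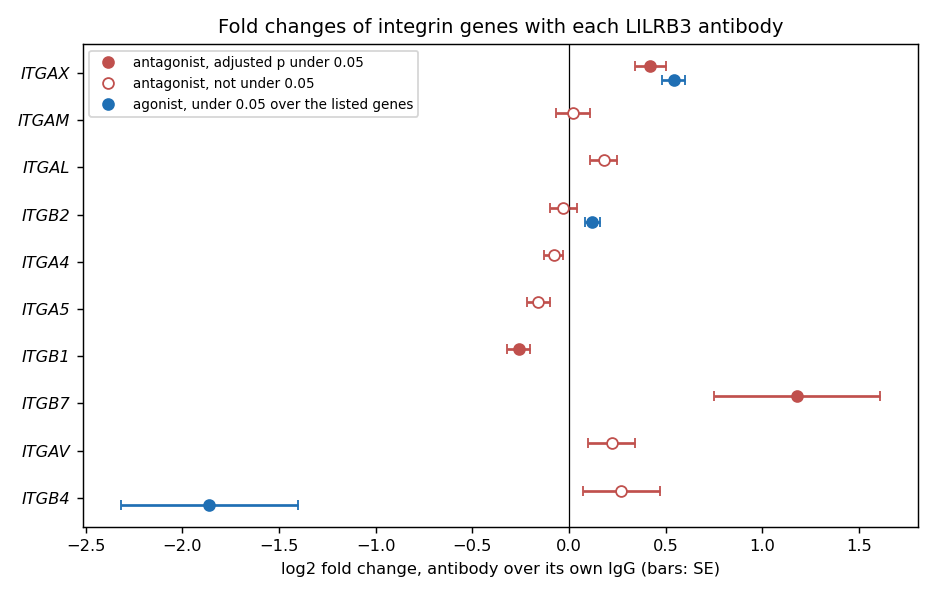
Log2 fold changes with SE of the 10 integrin genes with the antagonist (red) and of the 3 listed ones with the agonist (blue), each over its own IgG group; filled points passed an adjusted p of 0.05. ITGAX is at 0.42 and 0.54, ITGB1 at -0.26, ITGB7 at 1.18, and ITGB4 at 0.27 with the antagonist and -1.86 with the agonist.

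Between genes, levels were compared per kilobase of merged exon within set 1, a length that takes in every annotated isoform. In IgG libraries ITGB2 led with 147 ± 15.2 CPM per kb (SD, n = 3). It was followed by ITGA5 (60.0 ± 3.68), ITGA4 (33.5 ± 0.501), ITGB1 (27.4 ± 1.12), ITGAL (9.78 ± 0.76) and ITGAX (7.66 ± 0.739). ITGAM (2.78 ± 0.211), ITGAV (1.55 ± 0.132), ITGB4 (0.853 ± 0.236) and ITGB7 (0.117 ± 0.0711) were the lowest. No neighbours in this order overlapped among IgG libraries. With the antagonist the order was the same, but ITGAL (10.5 to 11.7 CPM per kb) and ITGAX (9.25 to 10.8 CPM per kb) overlapped.

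Upstream sequence was taken from RefSeq (GRCh38.p14), whose table held 6 of the 10 members and not ITGAX, ITGAL, ITGB2 or ITGB4. The 250 bases before the first listed start of ITGB1 and ITGB7, the called members in the table, and of ITGAM, which was level, are shown so that they can be compared. Capitals mark GAGGAA, a purine box of the kind bound by the myeloid factor PU.1, and GGGCGG, the GC box bound by SP1, on either strand (TTCCTC and CCGCCC on the other). ITGB1 is at chr10:32958231-32958480 (minus strand), ITGB7 at chr12:53207252-53207501 (minus strand) and ITGAM at chr16:31259725-31259974 (plus strand).
ITGB1: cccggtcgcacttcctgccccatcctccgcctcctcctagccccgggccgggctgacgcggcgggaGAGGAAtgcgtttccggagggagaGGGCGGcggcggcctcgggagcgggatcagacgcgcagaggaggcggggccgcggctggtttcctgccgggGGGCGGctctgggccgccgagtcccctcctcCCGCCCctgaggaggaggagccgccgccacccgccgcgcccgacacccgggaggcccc
ITGB7: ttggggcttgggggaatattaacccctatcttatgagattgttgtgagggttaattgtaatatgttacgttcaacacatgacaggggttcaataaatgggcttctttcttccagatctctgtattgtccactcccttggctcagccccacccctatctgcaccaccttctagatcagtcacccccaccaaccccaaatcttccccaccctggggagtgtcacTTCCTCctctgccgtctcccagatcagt
ITGAM: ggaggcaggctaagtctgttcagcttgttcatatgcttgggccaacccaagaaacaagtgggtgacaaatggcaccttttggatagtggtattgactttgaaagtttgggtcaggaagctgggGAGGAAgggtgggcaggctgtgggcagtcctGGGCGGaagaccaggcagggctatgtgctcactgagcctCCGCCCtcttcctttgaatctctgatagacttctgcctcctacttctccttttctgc
Over the 6 members in the table, the purine box occurred in the windows of ITGB1, ITGB7, ITGAM and ITGAV and not in those of ITGA4 and ITGA5. It was in 23.4% of 27305 upstream windows of the same length. The GC box was in the windows of ITGB1, ITGAM and ITGA5, and in 42.3% of all windows. The AP-1 motif TGANTCA (6.6% of all windows) was in none of the 6. These are matches of letters and say nothing of binding.

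Genes whose pattern lay closest to that of ITGAX were found by the root mean square difference of log2 CPM, each gene taken relative to its IgG mean. Over the 6 libraries of set 1, the closest of 13776 genes were LIME1 (difference 0.0213), a membrane adaptor, AKAP17A (0.0224), a splicing-related scaffold, and TNFAIP2 (0.024), a gene induced by tumour necrosis factor. The median difference over all those genes was 0.377. Among 863 genes of both tables and over all 12 libraries, the closest were the macrophage lectin SIGLEC1 (0.0563), the diacylglycerol kinase DGKQ (0.0891) and the proton pump subunit TCIRG1 (0.0969). The log2 fold changes of SIGLEC1 were 0.45 ± 0.11 with the antagonist and 0.57 ± 0.06 with the agonist.

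Integrin subunits outside the group of 10 were mostly not called with the antagonist. Of 9 tested, 1 was called higher and 0 lower, beside 15.6% and 20.5% of all genes, and their median was 0.07. With length and GC trends removed 1 was higher and 2 lower. Some were too low to be judged level, such as ITGA2B (0.02 ± 0.45) and ITGA11 (-0.01 ± 0.46), at 0.713 and 0.657 CPM with IgG. ITGA7, a laminin receptor chain known from muscle, rose to 58.5 ± 2.3 CPM with the antagonist, against 43.8 ± 2.31 CPM with IgG (0.42 ± 0.07, adjusted p = 0.000835, edgeR), and was at 0.22 with length and GC trends removed. ITGA6, which pairs with ITGB1 or ITGB4 to bind laminin, had 228 ± 4.12 CPM with the antagonist and 246 ± 1.85 CPM with IgG and was not called (-0.11 ± 0.05). With the agonist the 2 listed subunits, ITGB5 (0.69 ± 0.12) and ITGA3 (0.30 ± 0.10), were both called higher. For ITGA3 the call was lost with DESeq2 size factors (0.20), with the DESeq2 Wald test (0.20) and with length and GC trends removed (0.21). ITGB5 is a partner of ITGAV, and ITGA3 one of ITGB1.

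Integrin ligands made in the same cells showed 3 of 19 tested genes higher and 0 lower with the antagonist (median 0.03), where 15.6% of all genes were higher and 20.5% lower. With length and GC trends removed 2 were higher and 3 lower. The laminin chains LAMA5 (0.77 ± 0.15) and LAMB1 (0.82 ± 0.29) and the neuronal ICAM family member ICAM5 (0.46 ± 0.09) rose. LAMA5 and ICAM5 were at 0.38 and 0.28 once those trends were removed. LAMB1 was low, at 1.86 ± 0.0602 CPM with the antagonist and 1.06 ± 0.388 CPM with IgG, and no refit is given for it. The main β2 ligand ICAM1 was at -0.05 ± 0.08. With the agonist, 2 of 30 ligands were listed. Osteopontin SPP1, a ligand of αV and α4 integrins, was at 579 ± 23.9 CPM of listed counts with the agonist and 244 ± 35.6 CPM with IgG (1.24 ± 0.10), and the laminin chain LAMB3 was at 0.37 ± 0.12.

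Among genes that switch integrins on or off, 4 of 19 rose and 2 fell with the antagonist (median 0.00), beside 15.6% and 20.5% of all genes. The balance turned to 1 higher and 10 lower with length and GC trends removed. RAP1A, the GTPase that brings talin to the β tail, fell to 55.7 ± 2.65 CPM, against 76.0 ± 7.85 CPM with IgG (-0.45 ± 0.08, adjusted p = 0.00121, edgeR). The β1 tail binding protein ITGB1BP1 fell as well (-0.40 ± 0.07). The RAP1 exchange factors RASGRP2 (0.32 ± 0.07) and RAPGEF1 (0.25 ± 0.06) and the RAP1 inactivator RAP1GAP2 (0.45 ± 0.07) rose, but RASGRP2 (0.09) and RAPGEF1 (0.05) missed the threshold once these trends were removed and RAP1GAP2 was at 0.27. RAPGEF1 was also lost without antagonist library 1 (0.24) or 3 (0.22). Talin TLN1 (0.00056 ± 0.06) and the leukocyte kindlin FERMT3 (-0.06 ± 0.10) were not called. None of these genes was listed for set 2.

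Adaptors that tie integrins to actin moved in both directions. With the antagonist 7 of 19 rose and 5 fell (median -0.08), beside 15.6% and 20.5% of all genes. Removal of length and GC trends gave 4 higher and 8 lower. With library totals 8 were higher and 2 lower, where 3022 of all 13778 tested genes were higher and 1597 lower. Tensins TNS1 (0.52 ± 0.12) and TNS3 (0.42 ± 0.06) and the giant linkers DST (0.43 ± 0.07) and PLEC (0.34 ± 0.08) rose. No refit is given for PLEC. The integrin-linked kinase ILK (-0.27 ± 0.05), its partner LIMS1 (-0.34 ± 0.08) and the docking protein NEDD9 (-0.34 ± 0.10) fell. With those trends removed TNS3 was at 0.16 and DST at 0.23, and TNS1 missed the threshold (0.20), as did NEDD9 with library totals (-0.26) and without antagonist library 1 (-0.37) or 3 (-0.27). With the agonist only ACTN1, an actin crosslinker, was listed (-0.32 ± 0.07).

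Of 20 kinases and effectors, 4 rose and 5 fell with the antagonist (median -0.05), beside 15.6% and 20.5% of all genes. In the fit with length and GC trends removed 2 were higher and 9 lower. The small GTPases RAC1 (-0.36 ± 0.06), CDC42 (-0.35 ± 0.07) and RHOA (-0.32 ± 0.07) fell, RHOA to 530 ± 31 CPM, against 662 ± 44.8 CPM with IgG (adjusted p = 0.00316, edgeR). The adhesion kinase PTK2B (0.38 ± 0.06), the RAC activator DOCK2 (0.26 ± 0.06) and the lipid kinase PIK3CD (0.26 ± 0.07) rose. DOCK2 (0.07) and PIK3CD (0.09) were not called in that fit, where RAC1 was at -0.23, CDC42 at -0.22, RHOA at -0.21 and PTK2B at 0.19. PIK3CD was lost without antagonist library 1 (0.25) or 3 (0.24). SYK, the kinase that couples β2 integrins to ITAM adaptors, was at -0.09 ± 0.06. PIK3CD was the only gene of this list in the set 2 table (-0.27 ± 0.06).

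Partner and other adhesion receptors were lower or level with the antagonist, with 0 of 16 higher and 6 lower (median -0.19), beside 15.6% and 20.5% of all genes. Library totals gave 2 higher and 3 lower, where 3022 of all 13778 tested genes were higher and 1597 lower. Removal of length and GC trends gave 0 higher and 10 lower. The tetraspanins CD63 (-0.38 ± 0.08) and CD151 (-0.32 ± 0.06) and the transendothelial migration protein CD99 (-0.28 ± 0.05) fell. In set 2 all 7 listed genes of this list were called higher, led by the endotoxin co-receptor CD14 (0.93 ± 0.11), the scavenger receptor CD36 (0.58 ± 0.09) and the P-selectin ligand SELPLG (0.44 ± 0.09, and 0.20 with length and GC trends removed), among listed genes of which 99.9% were called.

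Over the 6 lists, 19 of 102 tested genes were higher and 18 lower with the antagonist, beside the 15.6% and 20.5% of all genes given above. The 19 genes that rose had a median exon length of 7.93 kb, and the 17 of those that fell with a known length had one of 4.09 kb. After removal of length and GC trends 10 were higher and 42 lower. With the agonist 13 genes of these lists were in the table, 11 higher and 2 lower.

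**Figure D5:**
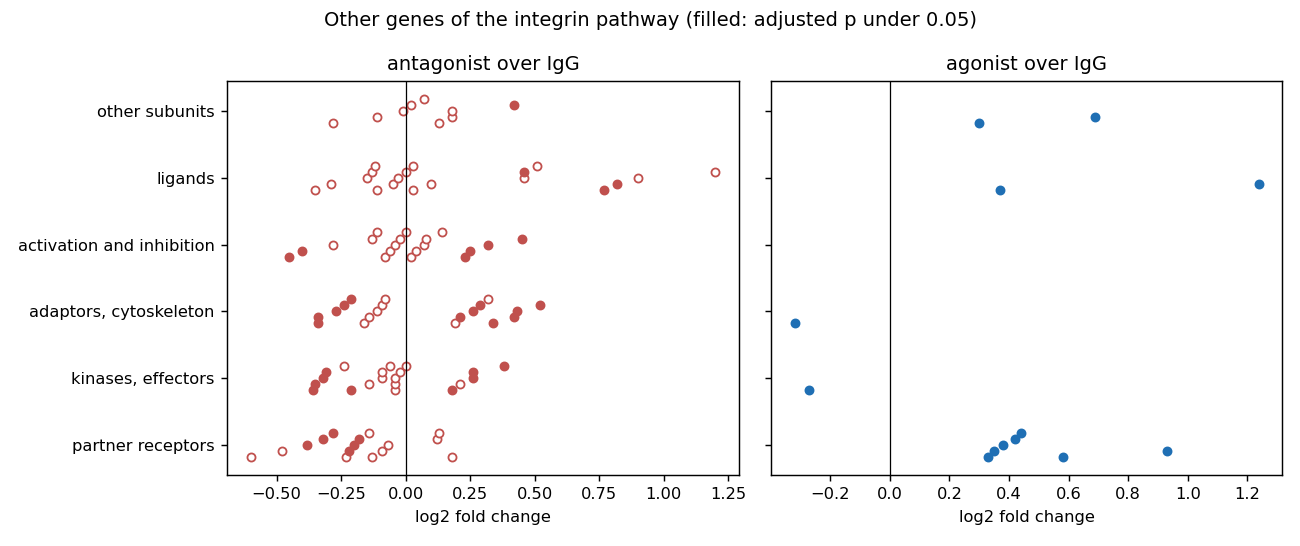
Log2 fold changes of the other integrin pathway genes by role, with the antagonist (left) and the agonist (right), each over its own IgG group; each point is a gene and filled points passed an adjusted p of 0.05. With the antagonist genes lie on both sides of zero in most roles, and 6 partner receptors are lower, while 13 genes are listed with the agonist.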

How the data were processed

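RNA-seq libraries of U937 cells were read as 2 tables of whole-number read counts per gene, deposited by the authors without normalization, 1 for each set of 6 libraries. Per the submitters' processing notes, HISAT2, Cufflinks and build hg38 were used; the sources used here do not give versions, counting program, annotation or strand. Column names carry a group and no replicate number, so library numbers below follow column order and pair nothing. Of 28395 rows in set 1, 570 had no symbol, held 0.0678% to 0.1047% of counts and were left out; the set 2 table had 904 genes.

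Counts were filtered with filterByExpr, scaled by TMM and tested with edgeR 4.0.16 in R 4.3.3 (robust quasi-likelihood test, Benjamini-Hochberg, 0.05) over each whole table, antibody against its own IgG. SE values come from the log2 fold change and the F statistic. The steps were tested on simulated data. Alternatives were DESeq2 1.42.0 (size factors and Wald test), library totals, no filter, removal of length and GC trends by offsets (GENCODE 29 lengths for 94.88% of tested genes in set 1 and 96.24% in set 2) and leaving out each library. Per-kilobase levels used merged exon lengths. Exact intervals are binomial.

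Members, lists and tests were chosen with earlier results of these data known. From each of the 6 pathway lists up to 3 genes per direction were named, taken by size of change among called genes whose groups were separated and whose mean reached 5 CPM, and the 3 genes most like ITGAX. ICAM1, LAMB1, TLN1, FERMT3, PLEC, SYK, ITGA6, PECAM1, ITGAD, ELANE, MPO, GP1BA, ITGB2-AS1 and ZNF740 were chosen after their values were seen.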

Additional observations from a re-analysis of the deposited data

Results flagged for a closer look

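In 4 pathway genes every antagonist library lay on one side of its IgG libraries and every agonist library on the other side of its own. Only 13 pathway genes were listed for set 2, so no others could be judged. Groups were separated, in either direction, in 49.0% of all tested genes with the antagonist and in 97.6% of listed genes with the agonist. How often genes in general were separated in opposite directions was not counted, so 4 cannot be called many or few. The difference between the antibodies was not tested, and the set 2 values rest on a list selected on those libraries. SELPLG was at -0.22 with the antagonist and 0.44 with the agonist. The platelet and endothelial adhesion receptor PECAM1 was at -0.20 with the antagonist and 0.38 with the agonist. The laminin chain LAMB3 was at -0.29 with the antagonist, where it was not called, and 0.37 with the agonist. The lipid kinase PIK3CD was at 0.26 with the antagonist and -0.27 with the agonist (all log2 fold changes over the antibody's own IgG group). No member of the group of 10 did so.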

How the results depend on the processing

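The number of members called with the antagonist, 3, was 6 after removal of length and GC trends, and stayed between 2 and 3 when 1 library was left out; the cause was not tested. With the agonist it was 2 to 3. Pathway calls with the antagonist, 37, ranged from 25 to 44 without 1 library and were 52 after trend removal. Calls over all tested genes moved as well, from 4978 to between 3143 and 5075 without 1 library and to 5522 after trend removal. Pathway calls with the agonist, 13, stayed at 13 without 1 library. They were 12 with DESeq2 size factors or trend removal and 11 with the DESeq2 Wald test. Over all listed genes 903 were called, and 846 to 885 without 1 library. That count was 717 with DESeq2 size factors, 716 after trend removal and 708 with the Wald test. Members whose direction turned were not called with TMM or in the fits that turned them, though ITGB2 (-0.23) and ITGA4 (-0.10) were called after trend removal. ITGAM was -0.08 after trend removal, -0.0017 without IgG library 2 and -0.0037 without antagonist library 1, and over all fits that left out 1 library at most 0.09; it was 0.10 with library totals. ITGB2 with the antagonist was 0.06 with library totals, 0.03 without IgG library 2 or 3, 0.01 without antagonist library 2, and at the lowest -0.08 over fits that left out 1 library. ITGA4 was 0.0032 with library totals. Among the named pathway genes 16 refits lost a call, 336 kept it and none turned. No paired analysis was possible because the columns carry no replicate numbers. Depth limits ITGB7 in set 1 and ITGB4 in set 2.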

Other observations

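Relative to ITGB2, some integrin loci differed more between the IgG groups of the sets than with either antibody. As a percentage of the ITGB2 count in the same library, ITGB4 averaged 0.0504% in IgG libraries of set 2 and 0.57% in those of set 1, 11.3-fold lower in set 2. The antisense gene ITGB2-AS1 averaged 0.629% in IgG libraries of set 2 and 0.0494% in those of set 1, 12.7-fold higher in set 2. Its set 1 mean rests on only 13, 2 and 10 counts, so that ratio is imprecise. Relative to ITGB2, ITGA3 (0.863% and 2.91%) and ITGB5 (0.373% and 1.07%) were also lower in set 2, whereas ITGAX was at 5.16% and 5.43%. The counts themselves overlapped for ITGA3 (559, 388 and 483 in set 2, against 497, 496 and 507). They also did for ITGB5 (242, 170 and 205, against 168, 163 and 219). ITGB2 had 58228, 50418 and 56211 counts in set 2, against 16378, 17727 and 17414. Since depth in set 2 is not known, a change in these genes cannot be told from one in ITGB2. Set, handling and library run cannot be told apart here, no test was made across tables, and only genes listed for set 2 could be compared.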
